A study of Mus musculus with 3 samples.

Results

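The genes of heat shock proteins and chaperones were examined for H3K36me3, the trimethylated histone mark that the enzyme Setd2 lays over transcribed gene bodies, in mouse regulatory T cells (Treg cells) of the spleen and the large intestine. Members were all protein-coding genes of the GENCODE M21 annotation whose symbol begins with Hspa, Hspb, Hsp90, Hspd, Hspe, Hsph or Dnaj, or reads Cct followed by a digit. The rule gave 82 members of 21951 protein-coding genes, and no measured value entered it. A peak was given to a gene when its midpoint lay in the annotated gene body. In all, 563 of the 120910 peaks fell to 59 members, 57 members had enough signal to be compared between the tissues, 2 had a peak but too little signal, and 23 had no peak.

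Both groups came from C57BL/6 mice labelled with the genotype Foxp3-YFP (Foxp3Cre-YFP in the methods), whose Foxp3 locus carries Cre recombinase with a yellow fluorescent protein, with Setd2 not deleted in either group. CD3+CD4+YFP+ cells were sorted at steady state, and cells of several mice of both sexes were pooled. There was 1 spleen library and 1 large intestine library, so no difference below has a replicate check, no p-value was computed and mice cannot be told apart. A further library of splenic input chromatin was not analysed here, and the methods describe the mice of the study in general as young adults.

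Chaperones bind unfolded or newly made proteins and help them to reach their native form. HSP70 proteins do so in cycles of ATP hydrolysis that J proteins (Dnaj) start and nucleotide exchange factors end, HSP90 acts on kinases and receptors that are nearly folded, and the chaperonins HSP60 and CCT enclose a chain in a barrel. Some of these genes are transcribed at a high rate in every growing cell, and others are silent until the heat shock factor Hsf1 binds the heat shock elements of their promoters. H3K36me3 follows elongating RNA polymerase and is known to rise from the start of a gene towards its end.

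Hsp90ab1, Hsp90b1, Hspa5, Hspa8, Hspa9 and 6 Cct genes carried broad H3K36me3 in both tissues, and few members differed between the tissues. The classical heat-inducible HSP70 genes Hspa1a and Hspa1b carried no peak. Of the 10 genes of the Hspb symbol 5 had a peak (50%), near the 45.7% of all protein-coding genes. The signal of a gene was the sum of the values of its peaks in RPKM, that is, mean read coverage per kilobase scaled to the depth of the library. The log2 ratio (large intestine over spleen) was taken after scaling each library to its total over all peaks, on the scale of log2(value + 0.5 RPKM), where the libraries together gave at least 20 RPKM. An approximate 95% interval gives the counting error alone. The median log2 ratio of the 57 compared members was -0.06, with a middle range over genes of -0.17 to 0.11, beside 0.00 (-0.20 to 0.23) over the 9456 protein-coding genes compared. Of these members 25 lay above 0 and 32 below.

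Past 2-fold, 1 of 57 members (1.75%) was higher in large intestine, where 3.24% of all compared genes were, and 0 members were higher in spleen, where 1.81% of genes were. The 1 gene was Dnajb7, and its interval included 0. Past 1.5-fold, 3 members (5.26%) were higher in large intestine against 9.02% of genes, and 2 members (3.51%) were higher in spleen against 5.57%. The interval lay above 0 in 4 members (7.02%), beside 17.5% of genes, and below 0 in 10 members (17.5%), beside 14.9% of genes. The shares of members past each fold were below those of all genes in both directions, a difference that was not tested, and the share with an interval towards spleen was near that of all genes.

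**Figure D1:**
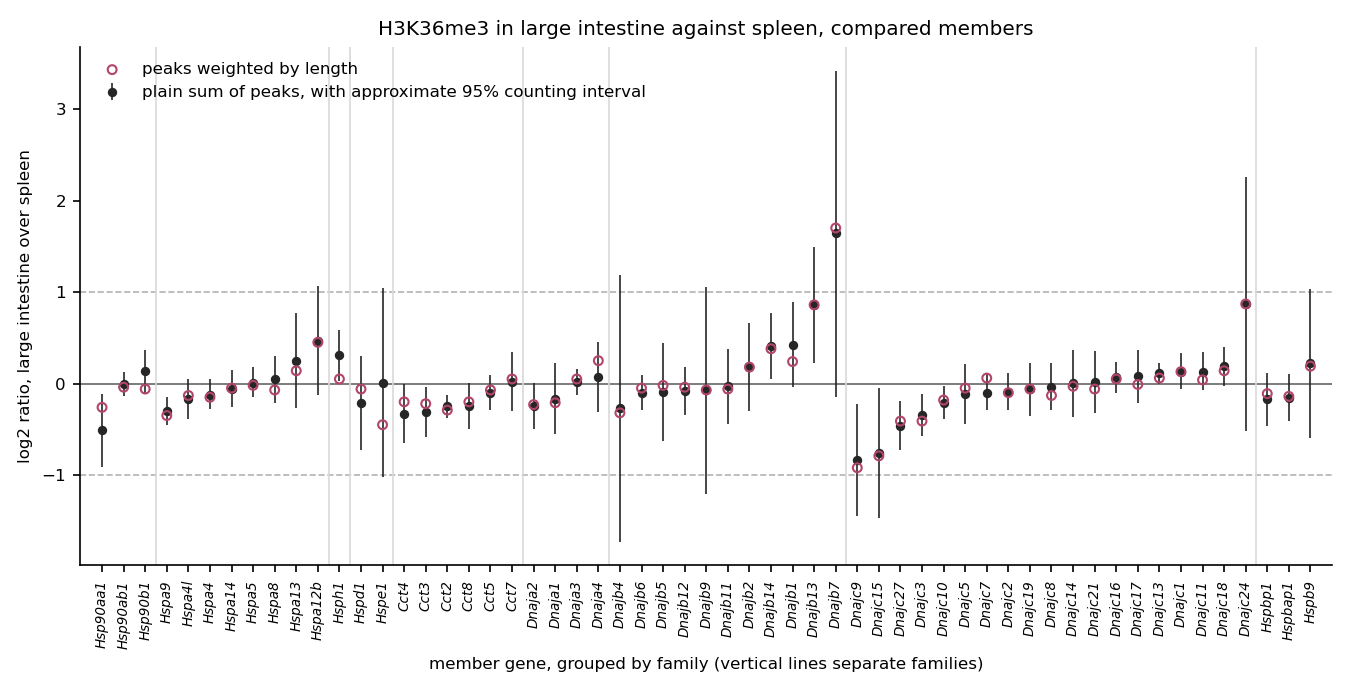
The log2 ratio of H3K36me3 in large intestine over spleen is plotted for the 57 compared members, grouped by family, as filled points with approximate 95% counting intervals (1 library per tissue). Open circles weight each peak by its length, dashed lines mark 2-fold, and Dnajb7 is the 1 point past them.

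Levels between genes were compared only per base, as the mean RPKM over the gene body. The median member with a peak had 7.25 RPKM in spleen against 7.47 in large intestine, beside 4.52 and 4.79 RPKM over the 10037 protein-coding genes with a peak. Peaks lay over 54.8% of the body of the median member and over 36.5% of the median gene. More than 75% of the body was under peaks in 16 of 59 members (27.1%), against 1265 genes (12.6%). A peak was present in 72% of members and in 45.7% of protein-coding genes. The upper 25% of genes by level held 24 of the 59 members (40.7%), and the lower 25% held 9.

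**Figure D2:**
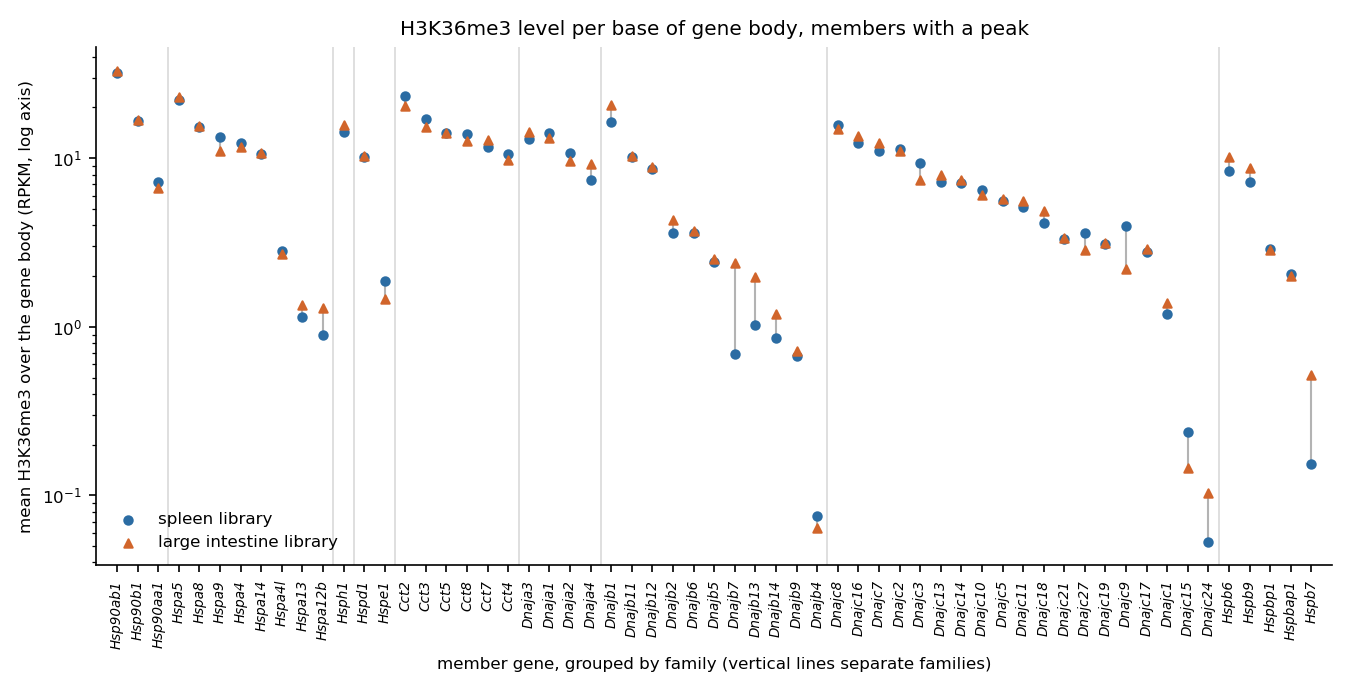
Mean H3K36me3 over the gene body (RPKM, log axis) is shown for the 59 members with a peak, with circles for the spleen library, triangles for the large intestine library and vertical lines between families. Hsp90ab1 is highest at 32.2 and 33.1 RPKM, and the members below 1 RPKM in either library are J protein genes, Hspa12b and Hspb7.

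Among the HSP90 genes, Hsp90ab1 (chr17:45567775-45573271 of GRCm38, minus strand), the constitutive cytosolic HSP90, had 32.2 RPKM over its body in spleen and 33.1 in large intestine. That level was at the percentile 99.5 of genes with a peak and the highest of the members. A single peak of 8592 bp covered 99.5% of the gene, beginning 25 bp inside the start and running 3120 bp past the annotated end. Its log2 ratio was -0.01 (-0.14 to 0.13), so the libraries were level within counting error. Hsp90b1, the HSP90 of the endoplasmic reticulum (ER), had 16.6 and 16.8 RPKM over its body, 93% of which was under peaks. Its summed signal was 41.5 RPKM in spleen against 47.1 in large intestine, a log2 ratio of 0.14 (-0.10 to 0.37), or -0.06 with peaks weighted by length. Without its most different peak, of 436 bp with 4.39 and 9.44 RPKM, the log2 ratio was -0.02. The longest peak of Hsp90b1, of 7209 bp, was higher in spleen, at 17.0 and 14.7 RPKM and a log2 ratio of -0.25.

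Hsp90aa1 (chr12:110690605-110702728, minus strand), the heat-inducible cytosolic HSP90, stood lower than both, with 7.25 RPKM over the body in spleen and 6.63 in large intestine. Its summed signal was 44.6 RPKM in spleen against 32.1 in large intestine, and the log2 ratio of -0.51 (-0.91 to -0.11) lay below 0. Much of that difference came from 1 peak of 216 bp near the start of the gene, with 12.4 RPKM in spleen against 2.96 in large intestine. Without that peak the sums were 32.3 and 29.2 RPKM and the log2 ratio was -0.19, and with peaks weighted by length it was -0.26. Both of its longer peaks, of 2721 and 2141 bp, were also higher in spleen, at log2 ratios of -0.13 and -0.24.

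**Figure D3:**
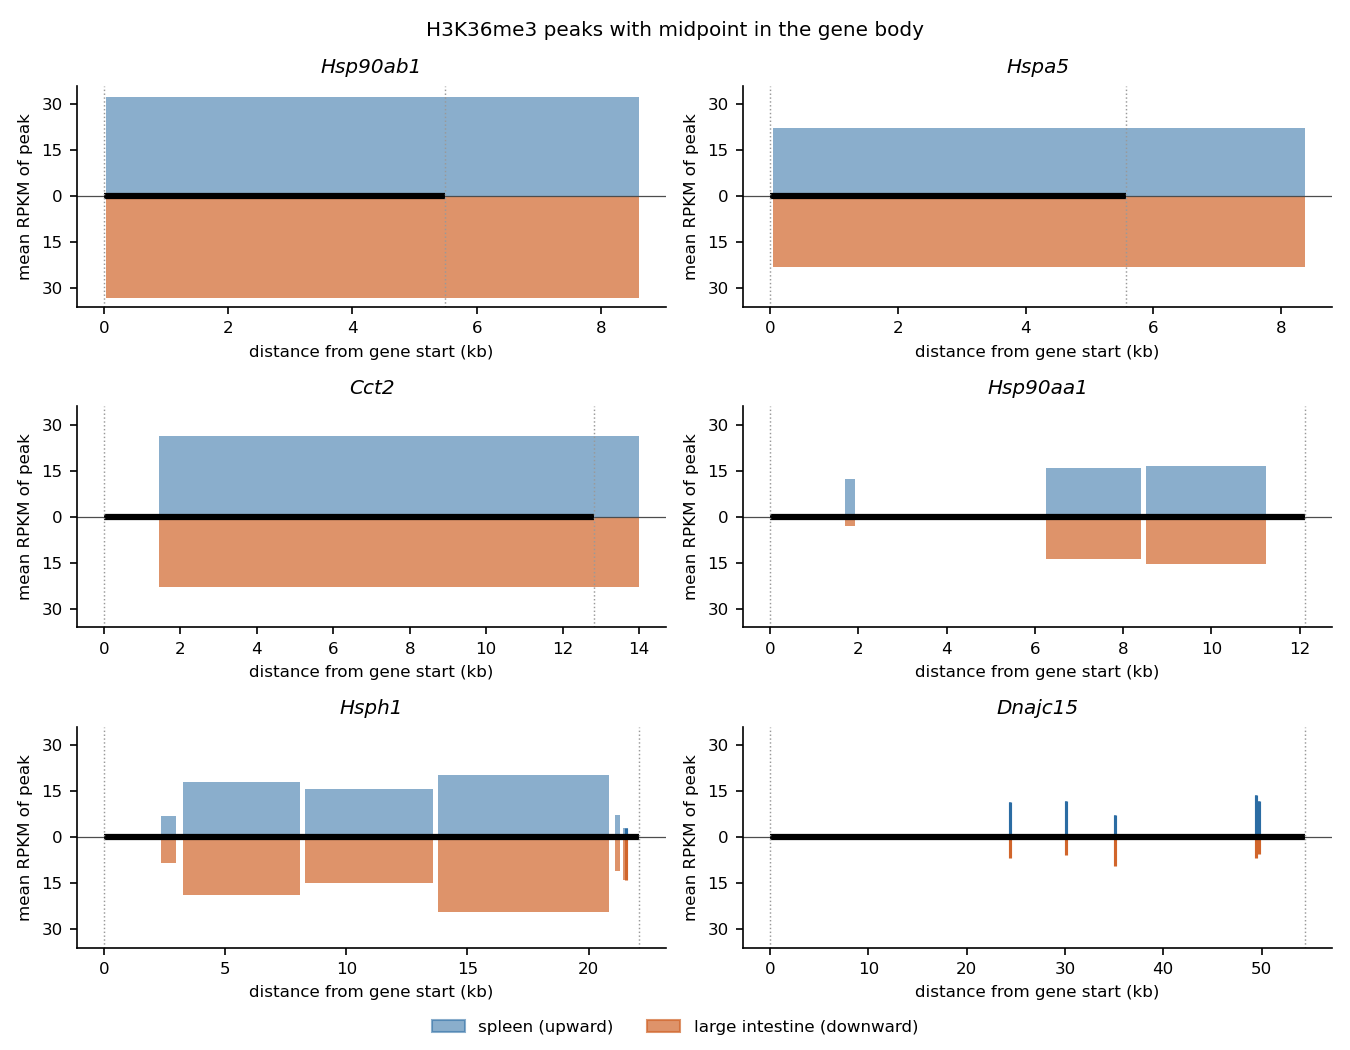
Each panel shows the peaks of 1 gene by distance from the gene start (kb), with mean RPKM upward for spleen and downward for large intestine, the gene body as a black bar and its ends as dotted lines. Hsp90ab1, Hspa5 and Cct2 lie under 1 broad peak that runs past the gene end, the short peak of Hsp90aa1 near its start has 12.4 RPKM in spleen against 2.96 in large intestine, and Dnajc15 has 5 short peaks.

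The HSP70 family ranged from genes under broad peaks, through thinly covered ones, to genes with none. Hspa5 (chr2:34771970-34777547, plus strand), the ER chaperone BiP, had 22.1 RPKM over its body in spleen and 23.0 in large intestine, with a log2 ratio of 0.01 (-0.15 to 0.18). Its 1 peak of 8336 bp began 42 bp inside the start and ended 2800 bp past the annotated end. Hspa8 (chr9:40800984-40810087, plus strand), the constitutive cytosolic HSP70, had 15.4 and 15.5 RPKM over the body in 3 peaks, and its log2 ratio was 0.05 (-0.21 to 0.30). The tissues were thus level in both of these genes. The first peak of Hspa8, of 2246 bp, began 156 bp before the annotated start.

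Hspa9, the mitochondrial HSP70, was covered over 89.6% of its body by a single peak of 15185 bp, with 14.9 RPKM in spleen against 12.4 in large intestine. The log2 ratio was -0.30 (-0.45 to -0.15), and it was -0.07 after correction for the GC content of the peaks (described further on). Hspa4, a nucleotide exchange factor of the family, had sums of 213 and 203 RPKM over 15 peaks, of which 10 were higher in spleen, and a log2 ratio of -0.12 (-0.28 to 0.05). Hspa14, which works at the ribosome, had a log2 ratio of -0.06, and Hspa4l one of -0.17, with intervals that included 0. The lowest levels of the family were those of Hspa13, at 1.15 and 1.35 RPKM over the body, and Hspa12b, at 0.891 and 1.29 RPKM. The 8 compared HSP70 genes had a median log2 ratio of -0.02.

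Hspa1a (chr17:34969190-34972156, minus strand) and Hspa1b (chr17:34956436-34959238, minus strand), the classical heat-inducible HSP70 genes, had no peak over any part of their bodies. The nearest peaks were 9719 bp from Hspa1a and 5237 bp from Hspa1b. The testis genes Hspa1l and Hspa2 and the gene Hspa12a also had none, though 1 peak lay 167 bp from Hspa2. The table lists only called peaks, so a gene without one is below the calling threshold and was not measured as zero. Hspa1a and Hspa1b are near-identical copies 9951 bp apart. Of the 2893 stretches of 75 bases in Hspa1a, the length of a read, 52.7% were also found in Hspa1b. Whether reads matching both copies were kept was not given in the sources used here for this assay, and its part in the missing peaks was not tested.

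The likeness goes on upstream of the genes. The promoters are printed from RefSeq (GRCm38.p6) to show how little separates them, as the 250 bases before each start, on the minus strand and 5′ to 3′, with the 3 bases that differ in capitals and 98.8% identity. The Hspa1a window is chr17:34972157-34972406 and that of Hspa1b chr17:34959239-34959488.
Hspa1a: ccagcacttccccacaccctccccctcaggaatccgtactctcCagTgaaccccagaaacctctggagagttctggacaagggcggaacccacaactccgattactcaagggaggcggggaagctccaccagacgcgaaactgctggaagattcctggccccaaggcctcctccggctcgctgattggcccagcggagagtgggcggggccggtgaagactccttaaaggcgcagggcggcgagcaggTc
Hspa1b: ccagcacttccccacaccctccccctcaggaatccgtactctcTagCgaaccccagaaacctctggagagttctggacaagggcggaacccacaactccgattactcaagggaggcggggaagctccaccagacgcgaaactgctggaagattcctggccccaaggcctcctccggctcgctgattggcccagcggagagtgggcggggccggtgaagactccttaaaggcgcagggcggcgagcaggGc

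Hspd1 and Hspe1 encode HSP60 and HSP10, the barrel and lid of the mitochondrial chaperonin, and lie head to head with 112 annotated bases in common. Hspd1 (chr1:55077835-55088243, minus strand) had 10.2 and 10.3 RPKM over its body, most of it in 1 peak of 6181 bp with 15.4 RPKM in spleen against 15.9 in large intestine. Its log2 ratio was -0.21 (-0.73 to 0.30) by the plain sum and -0.06 with peaks weighted by length. Hspe1 (chr1:55088132-55091307, plus strand) had much less, 1.88 and 1.46 RPKM over the body, in peaks of 209 and 466 bp. Of these the first was higher in large intestine (4.12 and 10.5 RPKM) and the second in spleen (11.0 and 5.22 RPKM), and the log2 ratio of the sum was 0.01 (-1.02 to 1.04). The 2 genes thus share a promoter region and differ in their mark over the body.

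Heat shock elements, the sites of Hsf1, were searched as GAANNTTCNNGAA and TTCNNGAANNTTC, which together cover both strands, in the 250 bases before RefSeq starts. Of the 82 members 67 had a promoter in the table, and 3 of them (4.48%) held a match, against 74 of 16522 protein-coding genes (0.448%). By windows the share was 4.65% of 86 for members and 0.382% of 20150 for all genes. The 3 members were Hspd1, Hspe1 and Dnajb6. The windows of the heat-inducible genes Hspa1a, Hspa1b and Dnajb1, and those of Hsph1, held no exact match. Hsp90aa1, Hsp90ab1 and Hspa8 were among the members without a promoter and were not searched. The search thus does not list all members with heat shock elements. The matching stretches are printed with the matched bases in capitals and their place counted from a RefSeq start, which can lie inside the annotated gene as it does for Hspd1: Hspd1 from -144 to -127 (chr1:55088053-55088082, minus strand), Hspe1 from -89 to -72 (the same bases on the plus strand), and Dnajb6 from -46 to -34 of 1 start and -127 to -115 of another (chr5:29735844-29735873, plus strand).
Hspd1: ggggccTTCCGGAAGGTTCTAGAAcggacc
Hspe1: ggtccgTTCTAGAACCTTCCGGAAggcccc
Dnajb6: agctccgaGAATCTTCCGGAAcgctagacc

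The Hspd1 and Hspe1 matches are 1 stretch read in opposite directions, so the 3 genes hold 2 separate sites. Each of these stretches lay outside the peaks, since no window with a match had a peak over it, while all 3 genes had peaks in the body. A second window of Hspd1, with no match, had 1 peak over it, with 4.12 RPKM in spleen against 10.5 in large intestine. Dnajb6, a J protein that holds back aggregation, had 3.62 and 3.70 RPKM over its body in 32 peaks and a log2 ratio of -0.10 (-0.29 to 0.09). A match of letters is a description and was not tested for binding.

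Hsph1 (chr5:149614287-149636376, minus strand), the HSP110 exchange factor of HSP70, had 14.4 RPKM over its body in spleen and 15.8 in large intestine. The sums of its 6 peaks were 71.2 and 91.1 RPKM, a log2 ratio of 0.31 (0.03 to 0.59). A peak of 200 bp near the gene end had 3.04 RPKM in spleen against 13.8 in large intestine. Without it the log2 ratio was 0.13, and weighting peaks by length gave 0.05. Its longest peak, of 7036 bp, was also higher in large intestine, at 20.4 and 24.3 RPKM and a log2 ratio of 0.20, while the 5258-bp and 4816-bp peaks stood at -0.11 and 0.01.

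The Cct genes encode subunits of CCT, the cytosolic chaperonin that folds actin and tubulin. Of 8 members 6 had peaks, and all 6 were marked broadly, with a median level over the body of 14 RPKM in spleen against 13.5 in large intestine. Cct6b and Cct8l1 had no peak. Cct2 (chr10:117051001-117063814, minus strand) was the highest at 23.5 and 20.3 RPKM over the body. Its single peak of 12581 bp began 1427 bp after the start and ran 1194 bp past the end, and the log2 ratio was -0.25 (-0.38 to -0.12).

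Cct3 had sums of 77.8 RPKM in spleen against 64.5 in large intestine, and each of its 5 peaks was higher in spleen, with a log2 ratio of -0.31 (-0.58 to -0.04). In Cct4 the sums were 82.6 and 67.7 RPKM, with 5 of 6 peaks higher in spleen and a log2 ratio of -0.33 (-0.65 to -0.01). Cct8 stood at -0.25 (-0.50 to 0.01), Cct5 at -0.10 (-0.29 to 0.09) and Cct7 at 0.02 (-0.30 to 0.34). Thus 3 of the 6 genes had an interval below 0, where 14.9% of all compared genes did, and after the correction for GC content Cct2 alone kept it.

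In Cct3, Cct4 and Cct8 a short or narrow peak early in the gene made part of the difference, while Cct2 had only its single broad peak. These peaks, the most different of each gene, were picked after their values had been seen. Left out by itself, the 205-bp peak of Cct3 brought the log2 ratio to -0.20, the 287-bp peak of Cct4 to -0.17 and the 858-bp peak of Cct8 to -0.02. The family median was -0.25 by the plain sum, -0.20 with peaks weighted by length and -0.05 after correction for GC content. Tcp1, the first subunit of the same complex, whose symbol is outside the rule, had 26.9 and 21 RPKM and a log2 ratio of -0.39 (-0.72 to -0.07). Cct6a is annotated as a processed transcript and so is also outside it, and had 62.4 and 66.8 RPKM and a log2 ratio of 0.05 (-0.26 to 0.37).

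GC content moved with the tissue ratio. Over all peaks the median log2 ratio was -0.53 in the lowest 5% by GC content, at 35.7% GC, and 0.35 in the highest 5%, at 59% GC. The peaks of the median compared member had 45.5% GC. Members at or below that value had a median log2 ratio of -0.12 (n = 29), and those above it 0.03 (n = 28). After correction of each peak for the median ratio of peaks of like GC content these became -0.00 and -0.04, and the median of all 57 became -0.03. Of the 10 members with an interval below 0, 5 kept it after this correction, Cct2, Dnajc3, Dnajc9, Dnajc27 and Hsp90aa1, while Dnajc15 (now -0.56), Cct3 (-0.21), Hspa9 (-0.07), Cct4 (-0.03) and Dnajc10 (-0.01) did not. An interval below 0 was gained by Dnajb12 (-0.28) and Hspbp1 (-0.32), which made 7 in all. The 4 members with an interval above 0 kept it, and Hsp90b1 (0.22) gained one. Across the 57 genes, which share both libraries and are not independent replicates, Pearson's r of GC content with the length-weighted log2 ratio was 0.39 and Spearman's rho 0.56. Over all 9456 compared genes r was 0.34 and rho 0.46. Split at 45.5% GC, all compared genes had uncorrected medians of -0.15 at or below it and 0.10 above it. The trend was thus not particular to the members.

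**Figure D4:**
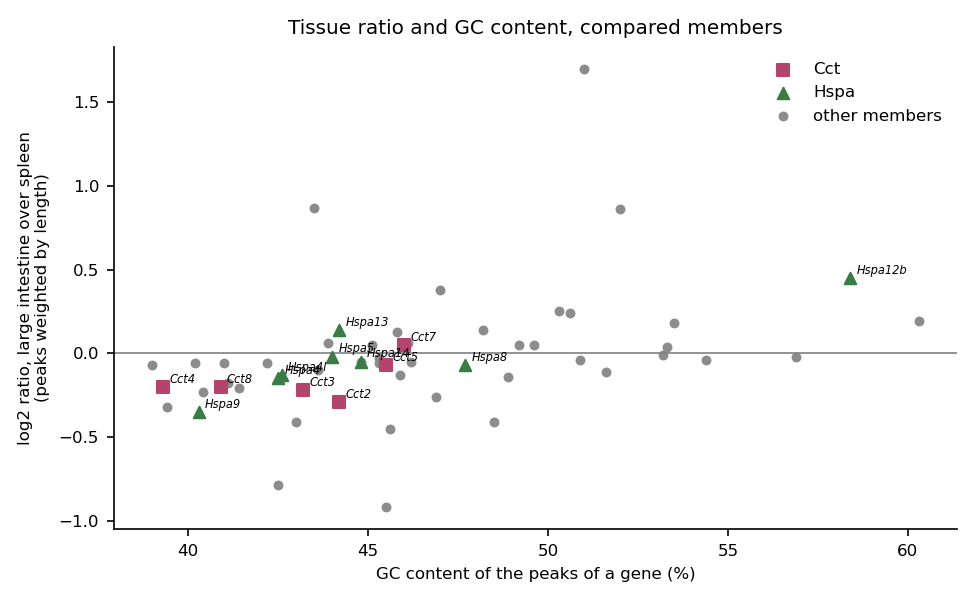
The length-weighted log2 ratio (large intestine over spleen) is plotted against the GC content (%) of the peaks of each of the 57 compared members, with squares for Cct, triangles for Hspa and grey circles for the others. Hspa9 and Cct4, at 40.3% and 39.3% GC, lie below 0, and Hspa12b, at 58.4% GC, lies above.

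All 4 Dnaja genes, which encode the J proteins nearest in build to the bacterial founder of the class, had peaks. Dnaja1 (chr4:40722150-40737149, plus strand), a cytosolic partner of HSP70, had 14.1 RPKM over its body in spleen and 13.1 in large intestine, with 90.7% of the body under peaks. Its log2 ratio was -0.17 (-0.55 to 0.22). The other genes stood at -0.25 (Dnaja2), 0.02 (Dnaja3, a mitochondrial J protein) and 0.07 (Dnaja4), and each interval included 0. Of the 26 peaks of Dnaja3, 15 also lay in Coro7 or Vasn, so their signal cannot be assigned to 1 gene.

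Dnajb1 (chr8:83608193-83612653, plus strand), the main heat-inducible partner of cytosolic HSP70, had 16.5 RPKM over its body in spleen and 20.7 in large intestine, at the percentile 93.4 of genes with a peak. Both of its peaks were higher in large intestine, at 8.38 and 14.9 RPKM over 234 bp and at 21.8 and 27.1 RPKM over 4111 bp. The log2 ratio was 0.42 (-0.04 to 0.89) by the plain sum and 0.24 with peaks weighted by length. By the plain sum the difference was within counting error. In contrast to Hspa1a and Hspa1b, this heat-inducible gene was among the most heavily marked.

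Dnajb13 (chr7:100501716-100514960, minus strand), a protein of the radial spokes of cilia and sperm tails, was among the members with the largest ratio towards large intestine. It had 21.5 RPKM in spleen against 40.6 in large intestine, and its log2 ratio was 0.86 (0.23 to 1.49). All 3 of its peaks, in the last part of the gene, were higher in large intestine, at 7.20 and 13.8, 6.01 and 12.2, and 8.24 and 14.7 RPKM. Its level over the body was only 1.03 and 1.97 RPKM. With peaks weighted by length the ratio was 0.86 without a pseudocount and 0.83 with one. After correction for GC content it was 0.72.

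Dnajb14, a J protein of the ER membrane, had 106 RPKM in spleen against 146 in large intestine over 15 short peaks, of which 11 were higher in large intestine. The log2 ratio was 0.41 (0.05 to 0.77), at a level of 0.86 and 1.19 RPKM over the body. Its strongest peak alone went the other way, at -0.80. Of the remaining Dnajb genes, Dnajb2, Dnajb4, Dnajb5, Dnajb9, Dnajb11 and Dnajb12 had log2 ratios from -0.27 to 0.18 with intervals that included 0.

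Dnajb7 (chr15:81406926-81408299, minus strand), a J protein gene with a single exon, had the largest ratio of the members and the thinnest support. It had 1 peak of 208 bp inside its coding sequence, with 4.56 RPKM in spleen against 15.7 in large intestine. The log2 ratio was 1.64 with an interval of -0.15 to 3.42. The same peak lies within Xpnpep3, which spans the gene, so the signal cannot be assigned to either. The peak, chr15:81407732-81407939 of GRCm38, is printed on the plus strand with its 11 CG pairs in capitals, since it holds the 1 call past 2-fold.
Dnajb7 peak: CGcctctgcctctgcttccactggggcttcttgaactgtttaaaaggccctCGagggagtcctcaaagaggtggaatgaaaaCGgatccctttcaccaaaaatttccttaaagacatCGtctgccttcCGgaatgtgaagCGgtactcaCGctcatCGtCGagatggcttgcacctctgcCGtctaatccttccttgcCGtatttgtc

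The Dnajc genes are the most varied class, J proteins with added domains that send HSP70 to single tasks. Of 28 members 19 had peaks, and their median log2 ratio was -0.04. Dnajc9 (chr14:20384638-20388910, minus strand), a co-chaperone of histones H3 and H4, had 13.5 RPKM in spleen against 7.55 in large intestine in 1 peak of 1252 bp. Its log2 ratio was -0.84 (-1.45 to -0.22), the largest of the members towards spleen. With GC correction it was -0.81.

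Dnajc15 (chr14:77820681-77875125, minus strand), a J protein of the mitochondrial inner membrane, had 56.4 RPKM in spleen against 34.2 in large intestine and a log2 ratio of -0.76 (-1.47 to -0.05). Of its 5 peaks of 207 to 273 bp 4 were higher in spleen, at 11.6 to 13.8 RPKM against 5.32 to 6.73 RPKM, and 1 was higher in large intestine, at 7.33 and 9.49 RPKM. With 2.13% of the body under peaks the level over the body was 0.239 and 0.146 RPKM, so the mark was sparse in both tissues. An intronic peak of 273 bp (chr14:77844887-77845159, plus strand shown), with 11.8 and 5.91 RPKM, is printed as an example that differs in the opposite direction from that of Dnajb7. It was picked for its 0 CG pairs. The other Dnajc15 peaks higher in spleen hold 4, 0 and 3 CG pairs, and the 1 higher in large intestine holds 6. Both Dnajc24 peaks were higher in large intestine and hold 3 and 2. A link between CG pairs and direction was not tested.
Dnajc15 peak: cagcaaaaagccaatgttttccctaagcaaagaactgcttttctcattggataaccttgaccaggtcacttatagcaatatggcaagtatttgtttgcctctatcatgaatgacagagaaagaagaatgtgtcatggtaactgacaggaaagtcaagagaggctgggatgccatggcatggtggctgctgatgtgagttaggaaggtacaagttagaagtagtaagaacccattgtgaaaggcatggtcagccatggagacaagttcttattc

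Dnajc27, a small GTPase with a J domain, had 220 RPKM in spleen against 165 in large intestine over 19 peaks, 13 of them higher in spleen, and a log2 ratio of -0.46 (-0.73 to -0.19). Dnajc3 (chr14:118937976-118981697, plus strand), an ER co-chaperone of BiP, had 157 and 128 RPKM and a log2 ratio of -0.34 (-0.57 to -0.11). Both remained below 0 after correction for GC content, at -0.51 and -0.29. The broadest peak of Dnajc3, 12424 bp long, had 17.4 RPKM in spleen against 12.9 in large intestine.

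Dnajc10, an ER disulfide reductase, had 364 and 325 RPKM and a log2 ratio of -0.21 (-0.39 to -0.03), which was -0.01 after correction for GC content. Dnajc13, which acts on endosomes, was the member with most peaks, 57, of which 37 were higher in large intestine. Its sums of 621 and 694 RPKM gave a log2 ratio of 0.11, with an interval whose lower bound rounds to 0.00. Dnajc24, needed for the diphthamide of elongation factor 2, had only 8.90 and 17.2 RPKM in 2 peaks, and its log2 ratio of 0.87 had an interval of -0.52 to 2.26. Shared peaks touched Dnajc1 (12 of 25 peaks also in Mllt10), Dnajc19 (11 of 16, in Fxr1), Dnajc7 (3 of 10, in Cnp) and Dnajc17 (3 of 10, in Gm14137).

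The ER chaperones did not move together. Hspa5 and Hsp90b1 had intervals that included 0, Dnajc3 and Dnajc10 lay towards spleen, Dnajb11 stood at -0.03 (-0.44 to 0.38) and Dnajb14 lay towards large intestine. The mitochondrial members were also mixed, with Hspa9 and Dnajc15 towards spleen, and Hspd1, Hspe1, Dnaja3 and Dnajc19 within counting error. These groupings used the plain sums and were made after the values had been seen. After correction for GC content, Dnajc10 (-0.01), Hspa9 (-0.07) and Dnajc15 (-0.56) no longer had an interval below 0. Dnajc3 and Dnajb14 kept theirs off 0, and Hsp90b1 (0.22) gained one above 0. By the plain sum, uncorrected, Hsp90b1 stood at -0.02 without its 436-bp peak.

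Small heat shock proteins are the ATP-independent holdases of the family. A peak was present in 5 of the 10 genes of the Hspb symbol (50%), beside 45.7% of protein-coding genes and 72% of all members. Hspb1, Hspb2, Hspb3, Hspb8 and Hspb11 had no peak, and the nearest peak was 16359 bp from Hspb1, the gene of HSP27, but 224 bp from Hspb11, whose product serves transport in cilia. Hspb6 had 3.77 and 13.4 RPKM and Hspb7 had 3.49 and 11.7 RPKM, each in 1 short peak with its midpoint in the gene, and both fell under the signal minimum of 20 RPKM. A second peak overlapped Hspb6, whose level over the body was 8.37 and 10.2 RPKM. Hspb9 had 10.3 and 12.5 RPKM and a log2 ratio of 0.22 (-0.59 to 1.03). Hspbp1, an exchange factor of HSP70 and no small heat shock protein, and Hspbap1 share only the letters of the symbol, and had log2 ratios of -0.17 and -0.16 with intervals that included 0.

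The other members with no peak were the J protein genes Dnajb3, Dnajb8, Dnajc4, Dnajc5b, Dnajc5g, Dnajc6, Dnajc12, Dnajc22, Dnajc25, Dnajc28 and Dnajc30. A peak lay 817 bp from Dnajc28 and 845 bp from Dnajc30. Of the 23 members without a peak, 6 consist of a single exon block.

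Along the gene body, the members' signal was lowest in the first of 5 equal sections and highest in the last. In spleen the sections from start to end held 7.89%, 19.1%, 21.4%, 24.6% and 27.0% of the signal, each peak counted by the bases it overlapped. In large intestine they held 8.04%, 19%, 21%, 24.5% and 27.5%. Over all protein-coding genes with a peak the first section held 7.16% in spleen and 6.94% in large intestine, and the last 32.1% and 32.8%. The profiles of the tissues were alike, and the members' climb towards the end was less steep than that of all genes by these shares, a difference that was not tested.

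**Figure D5:**
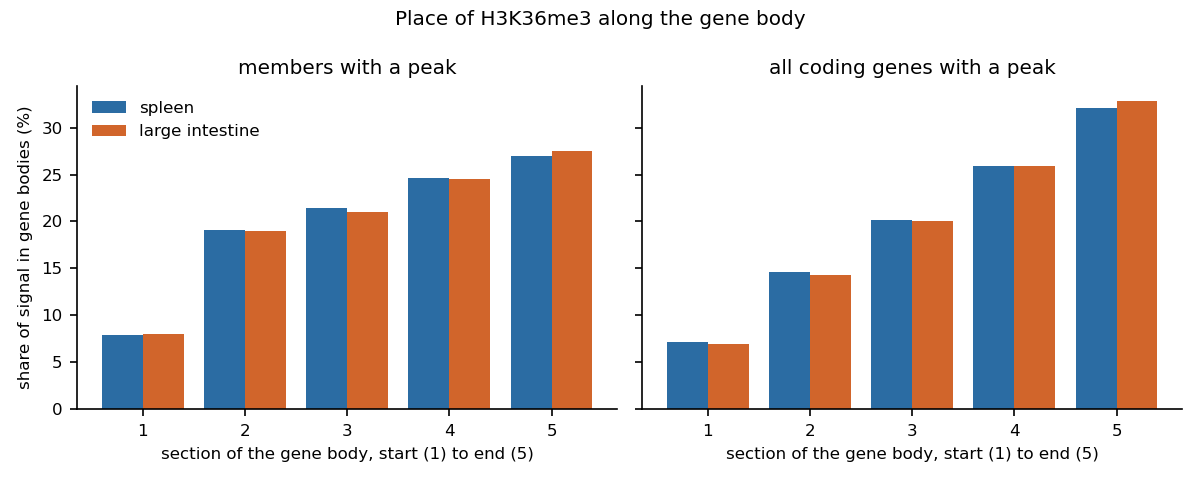
Bars give the share of H3K36me3 signal (%) in each of 5 equal sections of the gene body from start (1) to end (5), by bases overlapped, for the 59 members with a peak and for all 10037 protein-coding genes with one. In both tissues the share climbs from the first section, 7.89% and 8.04% in members, to the last.

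The longest peak was 1 kb or more in 46 of the 59 members. In 8 of the 46 it ran past the annotated end, in Cct2, Cct4, Cct5, Cct7, Cct8, Dnajb1, Hsp90ab1 and Hspa5, and in 0 did it reach before the start. These 8 include 5 of the 6 Cct genes with a peak. Only the longest peak of each gene was counted, and other peaks, such as the last ones of Cct3, Dnaja3 and Dnajc2, also ran past the end. The same share was not computed over all genes, so it cannot be called particular to these genes. Over all members, 128 of 563 peak midpoints (22.7%) lay in exons, and 48 (8.53%), of 7 members, also lay in another coding gene. Peaks that reach into another gene without their midpoint are not in that count.

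The partners of the chaperones were taken as a separate list of 40 co-chaperones, prefoldin subunits, ER folding enzymes and regulators. Of these, 39 had a peak and 38 could be compared, and the median log2 ratio was -0.07. None but Bag2 was without a peak. The interval lay above 0 in 3 (7.89%, beside 17.5% of all genes), Sgta at 0.36, Trap1, the mitochondrial HSP90, at 0.25 and Fkbp5 at 0.20. It lay below 0 in 4 (10.5%, beside 14.9%), Vbp1 at -0.97, Pfdn5 at -0.59, Tcp1 at -0.39 and St13 at -0.19. Vbp1 and Pfdn5 are subunits of prefoldin, which hands actin and tubulin to CCT. The remaining prefoldin genes stood at -0.06 (Pfdn1), -0.17 (Pfdn2), 0.04 (Pfdn4) and -0.43 (Pfdn6), with intervals that included 0. Hsf1, the heat shock factor, had 112 and 134 RPKM and a log2 ratio of 0.21 (-0.10 to 0.52), while Hsf2 had 28.3 and 18 RPKM and a log2 ratio of -0.68 (-1.48 to 0.12).

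By the smallest step of the values, about 29600000 reads were mapped for spleen and 38100000 for large intestine, a ratio of 1.29, and the median peak had 10.4 and 10.5 RPKM. All 6 markers of Treg and T cells had peaks, with 4.62 to 20.3 RPKM over the body in spleen and 3.92 to 18.1 RPKM in large intestine. Their log2 ratios were not uniform, and the interval lay off 0 in Ikzf2 (-0.55), Cd3e (-0.41) and Ctla4 (0.59). Of the markers of other cells, 1 of 2 for CD8 T cells, 2 of 5 for myeloid cells and 2 of 6 for epithelium had a peak, and Cd8a, Ms4a1, Lyz2, Krt8, Krt20 and Cdh1 had none. Among those with a peak, the myeloid gene Cd68 had 13.8 RPKM over its body in each tissue and 91.9% of it under a peak, Csf1r had 1.29 and 1.47 RPKM, and Cd8b1 had a log2 ratio of -1.16 (-2.33 to 0.01). Epcam, an epithelial gene, was higher in large intestine (25.3 and 47.2 RPKM, log2 ratio 0.84), and Cd79a, a B cell gene, was higher in spleen (47.2 and 29.8 RPKM, log2 ratio -0.70). The part of such cells in the ratios of Dnajb13, Dnajb14, Dnajc9 or other members was not tested. In these pooled libraries fewer cells carrying the mark and less of it per cell cannot be told apart.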

How the data were processed

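H3K36me3 ChIP-seq of sorted Treg cells was analysed in 1 spleen and 1 large intestine library. Single-end 75-nt reads were aligned by the authors to mm10 (the submitters' processing notes name Bowtie2), and they called peaks per tissue with MACS2 against input, merged them with bedtools and averaged RPKM coverage tracks over each merged peak, and the deposited values are these mean RPKM, though the table is labelled as raw counts. Values times peak length were whole multiples of 1 step per library in 100% of the low values (tolerance 0.05), which gave the depths. The reads in a peak were not recovered, and no count test was run. No peak passed a chromosome end of GRCm38 (0 of 21 chromosomes).

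Peaks were assigned by midpoint to gene bodies of GENCODE M21. RPKM values were summed per gene, and each library was scaled to its total (the log2 ratio of totals, 0.0455, was subtracted), with a pseudocount of 0.5 RPKM and a minimum of 20 RPKM over both libraries. The log2(value + 0.5) scale understates changes of low genes. Counting intervals (95%) took a read as covering 200 bp and treat reads as independent molecules, so they cover counting error only. GC correction used medians in 20 bins of GC content. Plain sums give a short peak the weight of a long one, so values weighted by peak length stand beside them where the difference matters. Length-weighted ratios took no pseudocount, except in the alternatives. Scripts in Python 3.11.15 (pandas 2.3.3, numpy 2.4.6, scipy 1.17.1) were tested on simulated data.

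The members, the lists of co-chaperones and cell markers and the alternatives were chosen with earlier results of these data known. Members named with values were the core chaperones and Cct genes, those past 2-fold, up to 8 per direction with the largest log2 ratio whose interval lay off 0, and the 5 with the highest level per base. Dnajb2, Dnajb4 to Dnajb6, Dnajb9, Dnajb11, Dnajb12, Dnajc1, Dnajc7, Dnajc10, Dnajc17, Dnajc19, Dnajc24, the remaining Dnaja, Hspa and Hspb genes and the partner genes were named outside that rule, after their values had been seen. Alternatives changed the scaling, pseudocount, filter, peak weighting, peak choice, assignment, GC correction and assumed read length. The input library was not used here. The count of B cell markers with a peak is not reported here.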

Additional observations from a re-analysis of the deposited data

How the results depend on the processing

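Of 193 summary values under an alternative 172 stayed within the limits set for a change (1.5 times for a count) and 21 moved. The number of members past 2-fold and higher in large intestine, 1 as reported, was 3 with no filter (Dnajb7, Hspb6 and Hspb7), 2 after GC correction (Dnajb7 and Dnajc24), and 0 with at least 200 RPKM, with peaks of 1 coding gene only or with peaks of 1 kb or more. The shares of all compared genes under these settings were 4.68%, 2.46%, 1.63%, 3.31% and 1.51%, in that order, and 3.24% as reported. The number past 2-fold and higher in spleen, 0 as reported, was 1 in the strongest peak of each gene (Dnajc15), where 1.59% of genes were. Percentages in brackets below are the shares of all genes compared under the same setting. Past 1.5-fold, the 3 members higher in large intestine were 5 with no filter (10.8%), 0 with at least 200 RPKM (4.97%) and 1 with peaks of 1 kb or more (4.53%). The 2 higher in spleen were 0 with at least 200 RPKM (2.98%), 1 with peaks of 1 kb or more (1.9%) and 1 after GC correction (6.27%). By the interval, the 4 higher in large intestine were 2 with at least 200 RPKM (19.5%) and 9 if a read covers 75 bp (26.5%). The 10 higher in spleen were 3 with at least 200 RPKM (21.5%), 5 in the strongest peak (6.43%), 5 with peaks of 1 kb or more (13.3%) and 6 by the nearest transcript start (13.6%). Filters and peak choices also changed how many members were compared: 59 with no filter, 25 with at least 200 RPKM, 46 with peaks of 1 kb or more, 54 by the strongest peak, 51 by the nearest start and 56 with peaks of 1 coding gene. The median of the 3 Hspb genes, -0.16, was 0.31 in the strongest peak, 0.22 with no filter (5 genes), and -0.21 both with peaks of 1 kb or more (2 genes) and after GC correction. Of 283 values of single genes 275 stayed, 7 moved and 1 reversed, Dnajb14 at -0.80 in its strongest peak. By the nearest start Hsp90aa1 stood at -0.11, Cct2 at -0.11, Hsp90b1 at -0.25 and Dnajb14 at 0.00. In the strongest peak Dnajc3, -0.34 as reported, stood at -0.08, and Hspa4, -0.12 as reported, at 0.08. Hspa9 stood at -0.07 after GC correction. What made values move between settings was not tested. The median of all members ranged from -0.10 to 0.00 over the alternatives, with that of all genes from -0.03 to 0.06.

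With peaks weighted by length the interval lay above 0 in 4 members and below 0 in 13, beside 18.9% and 21% of genes, and Hsp90aa1 and Hsph1 were not among them, while Dnaja4 and Dnajb1 were above 0 and Cct8, Dnaja1, Dnaja2 and Hspa4 below. No paired analysis was possible because each tissue had 1 library. Depth limits the short peaks most: the intervals of Dnajb7, Dnajb4, Dnajb9, Dnajc24 and Hspe1 were wider than 2 log2 units.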
